A study of Mus musculus with 5 samples.

Results

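The regions described are H3K27ac peaks of mouse epiblast stem cells that touched no peak of either H3K4 methylation mark, and they are called stand-alone peaks here. They were taken as the peaks of the H3K27ac list on chromosomes 1 to 19 that shared not even 1 bp with an H3K4me1 or H3K4me3 peak. This left 5338 of 32808 autosomal H3K27ac peaks (16.3%). Those with an H3K4me1 or H3K4me3 peak within 2 kb, edge to edge, were then separated as near peaks (1465), and the remaining 3873 are called fully isolated. The 4 lists of the series hold 156288 peaks in all. The regions were thus chosen by their overlap with the H3K4 lists and split by their distance to them, so values of either measure describe the choice and carry no test.

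Chromatin immunoprecipitation and sequencing were applied to EpiSC9, a line of epiblast stem cells, which represent the primed state of pluripotency after implantation. The cells grew with FGF2 at 10 ng/ml on irradiated mouse embryonic fibroblasts, and 5000000 crosslinked cells entered each immunoprecipitation. All groups share the line, the culture and the untreated state, and differ in the antibody alone: H3K27ac (Abcam #4729) is the group described, and H3K4me1 (Abcam #8895), H3K4me3 (Active Motif #39159) and H3K27me3 (Abcam #6002) are set beside it. Each antibody has 1 library and 1 peak list. With no replicate no test over samples could be made, and 95% intervals (Wilson for shares) cover counting over peaks alone. Reads from feeder cells cannot be told apart from reads of the stem cells in peak lists, and marker genes could not be checked because no annotation of mm9, the build of the lists, was used here.

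Acetylation of lysine 27 on histone H3 is laid down by the coactivators p300 and CBP, and is found at active promoters and enhancers. Active enhancers usually also carry H3K4me1, written by MLL3 and MLL4, while active promoters carry H3K4me3, written by SET1 and MLL complexes. H3K27me3, the product of Polycomb repressive complex 2, occupies the same lysine as the acetyl group, so a single histone tail cannot hold both. A missing peak in a list means that the signal did not pass the authors' calling threshold, and not that the mark was absent.

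Most H3K27ac peaks had H3K4 methylation, and the stand-alone peaks formed the smaller remainder. They made up 16.27% of autosomal H3K27ac peaks (95% interval 15.87 to 16.67). The share was 28.26% when H3K4 peaks below the median score of their list were left out, and 6.5% when H3K27ac peaks below their median score were left out. Of the same 32808 peaks, 13764 (41.95%) touched H3K4me1 alone, 12185 (37.14%) touched both H3K4 marks and 1521 (4.636%) touched H3K4me3 alone. Fully isolated peaks were 72.56% of the stand-alone peaks (71.34 to 73.74) and near peaks 27.44%. At the limit of the overlap rule, a peak on chromosome 8 at 74834171 to 74834647 (score 71.82) ended directly against an H3K4me1 peak with 0 bases between them, and one on chromosome 17 at 66052450 to 66053024 (score 76.23) lay 1 base away. Just outside the rule, a peak on chromosome 14 at 21036717 to 21037469 (score 204.53) and one on chromosome 7 at 25631836 to 25632231 (score 53.43) each shared 1 bp with H3K4me1. At the 2 kb limit, the closest isolated peaks were 2003 and 2006 bp from H3K4me1, and the farthest near peaks were 1987 and 1977 bp from it. These regions on either side of a limit were between 382 and 753 bp wide.

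Distances to the nearest H3K4 peak were spread over several orders of magnitude. The median was 7.83 kb over all stand-alone peaks (interquartile range 1.6 to 30.3), 16 kb over isolated peaks and 491 bp over near peaks, where 202 lay within 100 bp. From 2 kb outwards, the counts were 736 peaks up to 5 kb, 702 up to 10 kb, 713 up to 20 kb and 760 up to 50 kb. Beyond 100 kb there were 622 peaks, which is 16.1% of the isolated ones, and 83 of these lay more than 500 kb from any H3K4 peak. The counts thus stayed level over the 4 classes from 2 to 50 kb, which widen outwards, and fell in the classes beyond. H3K4me1 was the closer mark in most cases: isolated peaks lay a median of 16.8 kb from H3K4me1 and 48.7 kb from H3K4me3, and the H3K4me1 list is also the longer of the 2.

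**Figure D1:**
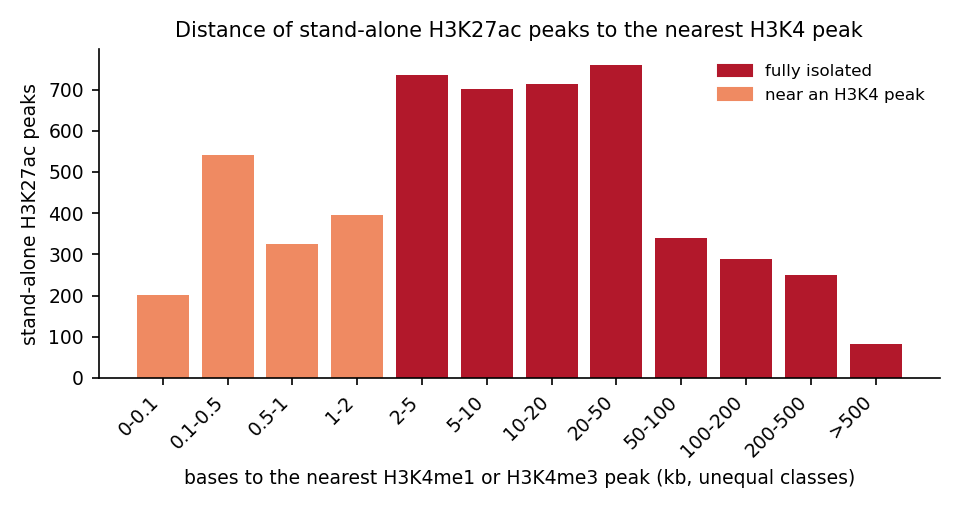
Number of stand-alone H3K27ac peaks (vertical axis) by the bases to the nearest H3K4me1 or H3K4me3 peak (horizontal axis, kb, classes of unequal width), with fully isolated peaks in dark red and near peaks in orange. Between 702 and 760 peaks fall in each of the 4 classes from 2 to 50 kb, and 83 lie beyond 500 kb.

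Stand-alone peaks were mostly weak and narrow. Their median score was 80.94 (interquartile range 59.78 to 138.52, 95% interval of the median 79.08 to 82.59), against 202.71 (89.18 to 642.03) for the 27470 other autosomal H3K27ac peaks. The score is the authors' and is compared only within the H3K27ac list, where it starts at 50. The median width was 572 bp (455 to 766), against 904 bp (609 to 1564) for the others. Isolated and near peaks resembled each other, with median scores of 82.83 and 75.49 and median widths of 581 and 555 bp. Close to the bottom of the list, 25.4% of stand-alone peaks scored below 60, against 9.25% of the others. A wide peak is more likely to touch a peak of another list, so width is not independent of the rule.

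The stand-alone share fell at every step from the weakest to the strongest H3K27ac peaks. In the lowest score decile (50 to 57.97) 1139 of 3280 peaks were stand-alone, or 34.73% (33.12 to 36.37), and in the fifth decile 17.77%. In the ninth it was 2.774%, and in the highest (1416.63 and above) 23 of 3281 peaks, or 0.701% (0.4676 to 1.05). The share in the highest decile was 1.707% when only H3K4 coverage of 50% or more removed a peak, 2.469% with the H3K4 lists limited to scores at or above their median and 0.378% with H3K27ac peaks merged within 1 kb. By width the share ran from 38.51% in the narrowest decile (up to 448 bp) to 0.9144% in the widest (2254 bp and above). Isolated peaks outnumbered near peaks in each of the 10 score deciles.

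**Figure D2:**
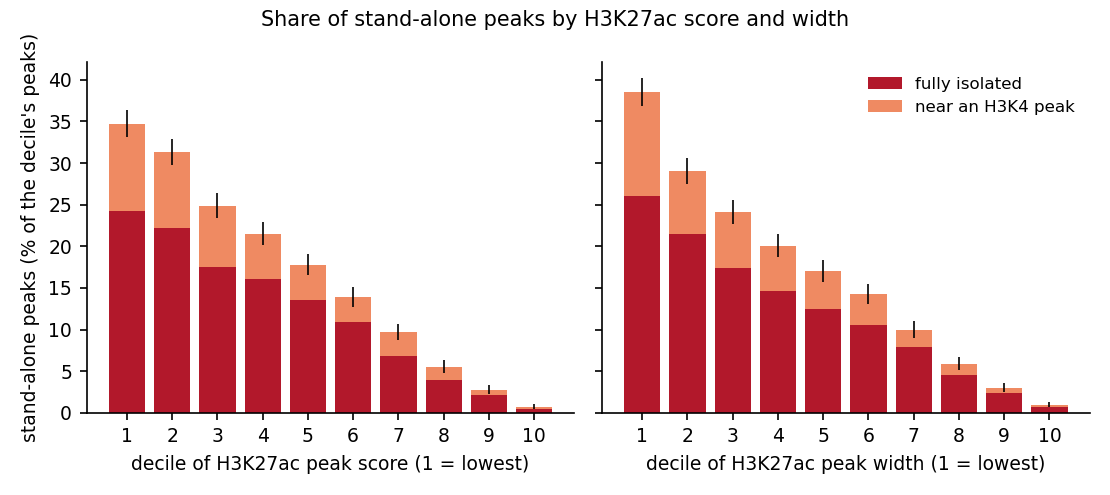
Stand-alone peaks as a percentage of the autosomal H3K27ac peaks in each decile of score (left) and of width (right), stacked as fully isolated (dark red) and near an H3K4 peak (orange), with 95% Wilson intervals of the total as black lines. The share falls from 34.73% in the lowest score decile to 0.701% in the highest.

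Within classes of score, stand-alone peaks were slightly narrower at the weak end and more so at the strong end. Among peaks scoring 50 to below 60, the median width was 425 bp for isolated, 420 bp for near and 450 bp for other peaks. At 100 to below 150 the medians were 700.5, 670.5 and 713 bp in the same order of groups. At 1000 and above they were 1805 bp for 39 isolated peaks and 1675 bp for 15 near peaks, against 2392 bp for 4768 other peaks. The interquartile ranges still overlapped in that class, at 1491.5 to 2346.5 bp for isolated and 1874.75 to 3080.25 bp for other peaks. That class has no upper limit, so scores in it were not equal between the groups. It held 1 isolated peak and 1007 other peaks scoring 3100 or more. Below a score of 500 the medians of isolated and other peaks were closer in each class than over all scores (581 and 904 bp).

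**Figure D3:**
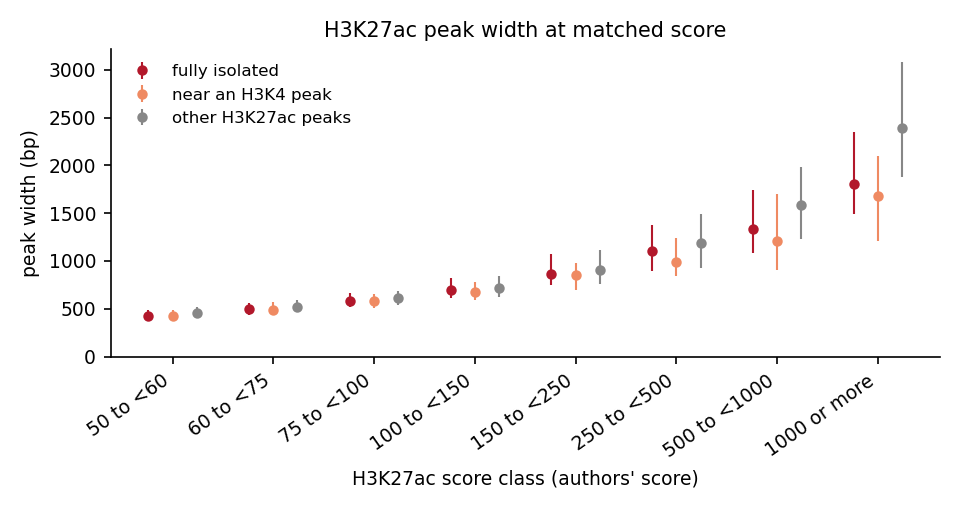
Median width of H3K27ac peaks in bp (points, with interquartile ranges as lines) in 8 classes of the authors' score, for fully isolated (dark red), near (orange) and other (grey) peaks. The medians lie within 30 bp of each other in the lowest class and separate in the highest, at 1805, 1675 and 2392 bp. The highest class has no upper limit, so scores in it are not equal between the groups.

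Strong stand-alone peaks existed but were few. A score of 500 or more was reached by 204 of them (3.822%, 3.34 to 4.37), against 25.5% of all autosomal H3K27ac peaks, and 54 reached 1000. The level of 500 was chosen after the values were seen. Of the 204, 155 were fully isolated, whose width was 1436 bp and whose distance to the nearest H3K4 peak was 27.3 kb at the median. They came from all 19 autosomes, and 41 of them lay more than 100 kb from H3K4. In the classes of distance, 26 of 736 peaks at 2 to 5 kb (3.53%) and 17 of 702 at 5 to 10 kb (2.42%) scored 500 or more. The counts were 20 of 340 at 50 to 100 kb (5.88%) and 23 of 289 at 100 to 200 kb (7.96%). Farther out they were small, with 15 of 250 at 200 to 500 kb (6%) and 3 of 83 beyond 500 kb (3.61%). The median score did not fall off with distance: it was 77.06 at 2 to 5 kb, 106.2 at 200 to 500 kb and 87.27 beyond 500 kb.

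The strongest isolated peak, on chromosome 10 at 33093539 to 33097484, was also the widest, at 3946 bp. It scored 3100, a level that 1029 peaks of the whole H3K27ac list reached or passed. The peak lay 178 kb from the nearest H3K4me1 and 246 kb from the nearest H3K4me3 peak. A second isolated peak followed 12 bp away, and together they covered 4.6 kb. Next in score came chromosome 14 at 98691941 to 98695283 (score 2865.43, 3343 bp), a lone peak with H3K4me1 at 112 kb and the next H3K27ac peak at 257 kb. Both peaks were wider than the median of other H3K27ac peaks scoring 1000 or more (2392 bp), a class that reaches down to scores far below theirs. Neither had a listed H3K4 peak within 100 kb on either side.

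The other 6 of the 8 highest-scoring isolated peaks were less uniform. On chromosome 6 at 129036363 to 129038633, a peak scoring 2485.16 had H3K4me1 at 20.4 kb. On chromosome 18 at 38042765 to 38045038, a peak scoring 2298.11 lay only 2.79 kb from H3K4me1 and 256 bp from another H3K27ac peak. Chromosome 3 held both of the following ones, at 64067659 to 64070850 (score 2026.64) in a run of 3 isolated peaks with H3K4me3 at 223 kb, and at 72661014 to 72664523 (score 2024.43) in a run of 4 with H3K4me1 at 193 kb. The last of the 8 were on chromosome 7 at 71471821 to 71473317 (score 1983.8), 33.1 kb from H3K4me1, and on chromosome 1 at 67980764 to 67983529 (score 1935.2), 109 kb from H3K4me1 and 830 kb from the next H3K27ac peak. Of the 5 widest isolated peaks, 4 were among these 8. The remaining one, on chromosome 10 at 54228274 to 54231702, was 3429 bp wide with a score of 1699.19 and lay 133 kb from H3K4me1.

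The peaks farthest from H3K4 differed in strength. The most remote was on chromosome 2 at 99916661 to 99918396, 1410 kb from H3K4me3 and 1540 kb from H3K4me1, and it scored 1016.86. Those on chromosome 1 at 49594192 to 49594745 (score 112.1, 1390 kb away) and on chromosome 6 at 68811499 to 68811910 (score 57.2, 1330 kb away) were narrow and weak. The next, on chromosome 17 at 61613358 to 61613977 and at 61614022 to 61614418, scored 107.05 and 53.29 and formed a single pair with 44 bp between them, 1240 kb from H3K4me1.

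Near peaks lay beside H3K4me1 more often than beside H3K4me3. H3K4me1 was the nearest H3K4 mark of 1275 of 1465 (87.03%, 85.21 to 88.65) and H3K4me3 of 190. The H3K4me1 list is also the longer, with 76362 autosomal peaks against 27970 for H3K4me3. The share nearest to H3K4me1 was 68.93% with the H3K4 lists limited to scores at or above their median. Within 2 kb, 1093 had H3K4me1 alone, 263 had both marks and 109 had H3K4me3 alone. An H3K4 peak stood within 2 kb on both sides of 237 near peaks (16.18%, 14.38 to 18.15), and in 216 of these it was H3K4me1 on both sides. Such flanked peaks sat in an H3K4-free gap of 1927 bp at the median and were 543 bp wide, against 558 bp for those flanked on 1 side. The flanked share was 10.59% with the H3K4 lists limited to scores at or above their median, and 26.17% with near set at 5 kb.

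The H3K4me1 peaks next to them were themselves often acetylated. Of 1515 H3K4me1 peaks within 2 kb of a near peak, 68.5% were overlapped by another H3K27ac peak. Over all 76362 autosomal H3K4me1 peaks, H3K27ac overlapped 23585. The 1515 had a median score on the H3K4me1 scale of 123.2 and a median width of 1525 bp. For the 1038 of them that another H3K27ac peak overlapped, these were 149.8 and 1666 bp. That compares with 190.9 and 1864 bp for all 23585 overlapped H3K4me1 peaks, and 109.5 and 1439 bp for the 52777 without H3K27ac. The highest-scoring near peaks were on chromosome 2 at 75605097 to 75607681 (score 3126.92, H3K4me1 at 853 bp), chromosome 18 at 47198331 to 47200067 (score 2832.18, 421 bp) and chromosome 16 at 16521081 to 16522866 (score 1771.88, 768 bp). They were followed by chromosome 3 at 152475804 to 152478322 (score 1741.97, 472 bp) and chromosome 10 at 28737946 to 28739839 (score 1633.5, 455 bp). Each of the 5 had H3K4me1 within 2 kb on 1 side only, and H3K4me3 no nearer than 7.5 kb.

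Spacing to other H3K27ac peaks is not independent of the rule. Most H3K27ac peaks touch H3K4, and the 2 kb limit keeps nearly all of these away from isolated peaks, so the spacings are given as a description. Of all stand-alone peaks, 2117 (39.66%, 38.35 to 40.98) had no other H3K27ac peak within 10 kb, against 29.7% of all autosomal H3K27ac peaks. The share was 49.8% for isolated, 12.8% for near and 27.8% for other peaks. Another H3K27ac peak within 2 kb was found for 32.38% of isolated and 73.65% of near peaks, against 55.75% of the others and 53.8% of all. Of these neighbours within 2 kb, 18 of 1254 touched H3K4 beside isolated peaks and 857 of 1079 did beside near peaks, which the split largely fixes. The median distance to the next H3K27ac peak was 9.84 kb for isolated and 0.548 kb for near peaks, against 0.873 kb for the others. The next H3K27ac peak at any distance was one with H3K4 for 47.8% of isolated and 80.7% of near peaks, against 90.6% of the others and 85.1% of all. It was an isolated peak for 48.3% of isolated and 5.46% of near peaks, against 4.86% of the others and 10% of all.

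**Figure D4:**
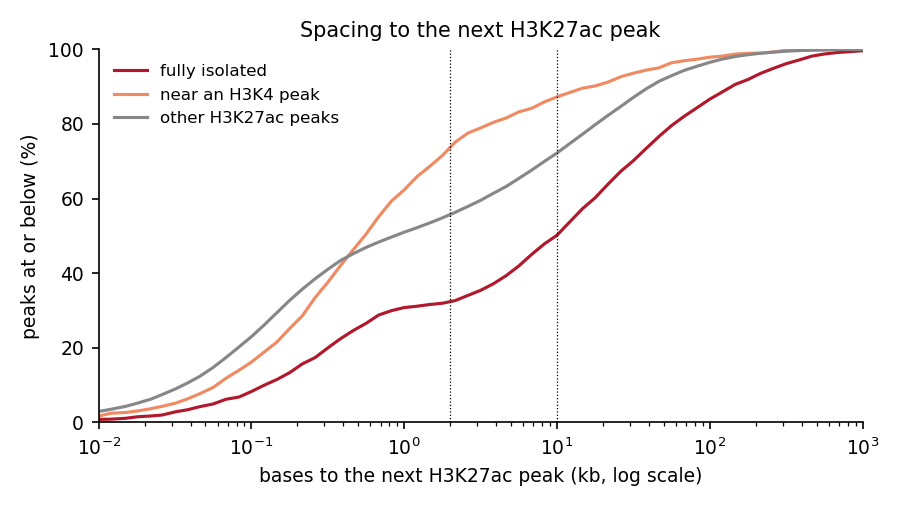
Cumulative percentage of peaks (vertical axis) by the bases to the next H3K27ac peak (horizontal axis, kb, log scale) for fully isolated (dark red), near (orange) and other (grey) peaks, with dotted lines at 2 and 10 kb. At 10 kb the isolated curve stands at 50.17%, the near curve at 87.24% and the curve of other peaks at 72.19%, and the 2 kb limit of the split bears on the isolated curve left of the first dotted line.

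When isolated peaks within 10 kb of each other and with no H3K4 peak between them were joined, 3127 runs resulted. Of these, 2508 were a single isolated peak, 526 were pairs, 68 held 3 peaks, 17 held 4, 7 held 5 and 1 held 6. The 2 peaks of a pair were close together, with a median of 296 bp between them (interquartile range 116 to 595), and 444 of the 526 gaps (84.4%) were at most 1 kb.

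The run with the most peaks was on chromosome 6 at 149403682 to 149409798, where 6 peaks covered 3.97 of 6.12 kb with scores of 68.51 to 422.75, and H3K4 lay 30.5 kb away. Among the runs of 5, peaks covered most on chromosome 3 at 7999944 to 8007627, with 6.95 of 7.68 kb, scores up to 1084.5 and H3K4 at 115 kb. The runs on chromosome 5 at 27076200 to 27081692 and on chromosome 15 at 39071848 to 39082312 had scores up to 1216.86 and 853.15, with H3K4 at 19.3 and 19.5 kb. A further run on chromosome 3, at 88374760 to 88380143, had scores up to 221.22 and H3K4 at 2.16 kb. The absence of H3K4 peaks inside a run is part of how runs were joined.

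Strong isolated peaks had a close H3K27ac neighbour more often than weak ones. Another H3K27ac peak lay within 2 kb of 67.1% of the 155 isolated peaks scoring 500 or more, against 40.3% of the 1359 scoring 100 to below 500 and 25.6% of the 2359 scoring below 100. Near peaks showed the same order, with 91.8% of 49, 80.2% of 450 and 69.7% of 966. For the other H3K27ac peaks the shares were 50.2%, 60.2% and 55.1% in the same order of scores. The share with a neighbour within 2 kb also varied with distance from H3K4. It was 86.6% for near peaks up to 100 bp from H3K4 and 61.9% for those at 1 to 2 kb. Among isolated peaks it was 29.1% at 2 to 5 kb, 27.1% at 10 to 20 kb, 34.3% at 20 to 50 kb, 45.6% at 200 to 500 kb and 43.4% beyond 500 kb. The median distance to the next H3K27ac peak rose from 4.02 kb for isolated peaks at 2 to 5 kb to 49.6 kb for those at 50 to 100 kb. It was 46.6 kb at 100 to 200 kb, 16.5 kb at 200 to 500 kb and 15 kb beyond 500 kb.

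The surroundings of isolated peaks were poor in H3K4 peaks at a larger scale as well. Peaks were counted where their midpoint lay within 100 kb on either side of the midpoint of the H3K27ac peak. The median number of H3K4me1 peaks was 6 around isolated peaks (interquartile range 1 to 12). It was 13 around near peaks, against 15 around other H3K27ac peaks. The rule itself places at least 1 H3K4 peak at each of the others and none within 2 kb of the isolated ones. For H3K4me3 the medians were 2, 4 and 5, and for further H3K27ac peaks 4, 8 and 7, in the same order of groups. No H3K4me1 peak lay in that window for 17.7% of isolated and 1.43% of near peaks, against 0.218% of the others. Among peaks scoring 500 or more the median number of H3K4me1 peaks was 3 around isolated and 8 around near peaks, against 15 around the others. Among peaks scoring below 100 it was 6, 13 and 15 in the same order of groups. Since closeness to H3K4 chose and split the regions, these counts are a description.

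H3K27me3, which the rule did not use, was rare on autosomal stand-alone peaks. Only 6 of 5338 overlapped an H3K27me3 peak (0.1124%, 0.05152 to 0.245), against 127 of the 27470 others (0.4623%, 0.3887 to 0.5498) and 0.405% of all autosomal H3K27ac peaks. Among peaks under 1 kb wide, the counts were 4 of 4705 stand-alone peaks (0.08502%) and 82 of 15132 others (0.5419%), with median widths of 544 and 631 bp in these groups. With the X chromosome added the shares no longer stood apart, at 32 of 5605 stand-alone peaks (0.5709%, 0.4047 to 0.8048) and 170 of 27995 others (0.6073%, 0.5228 to 0.7053). An H3K27me3 peak within 10 kb was found for 1.836% of stand-alone peaks (1.509 to 2.232) and for 6.454% of the others (6.17 to 6.751). Over all autosomal H3K27ac peaks it was found for 5.703%. The shares within 10 kb were not set apart by H3K4 state. For direct overlap, the stand-alone share was close to that of H3K27ac peaks with H3K4me1 alone. Of these, 18 of 13764 overlapped H3K27me3 (0.1308%, 0.08274 to 0.2066). The overlap share was higher for peaks with H3K4me3 alone (9 of 1521, 0.5917%, 0.3116 to 1.121) and for those with both H3K4 marks (100 of 12185, 0.8207%, 0.6753 to 0.9971). The overlaps of the other peaks thus lay mostly where H3K4me3 was present.

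The largest of the 6 overlaps was on chromosome 11 at 34495103 to 34495944, where H3K27me3 covered 772 of 842 bp of an isolated peak scoring 56.98. On chromosome 4 at 108821863 to 108823041 it covered 386 bp of a near peak scoring 281.83, and on chromosome 5 at 8972788 to 8973897 it covered 289 bp of an isolated peak scoring 221.79. The remaining 3, on chromosomes 11, 13 and 16, scored between 54.98 and 88.11 with 108 to 242 bp covered. None of the 6 reached a score of 500.

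Stand-alone peaks were found on every autosome at a more even density than other H3K27ac peaks. They numbered 1.7 to 2.65 per Mb over the 19 autosomes (median 2.14), while other H3K27ac peaks numbered 7.8 to 18.3 per Mb, so the highest value was 1.56 times the lowest for the first and 2.35 times for the second. As a share of a chromosome's H3K27ac peaks they were highest on chromosome 13 (21.28%, 19.28 to 23.42) and lowest on chromosome 11 (11.83%, 10.62 to 13.14). Chromosome 11 had the densest H3K4me1 list, at 50.2 peaks per Mb. Over the 19 chromosomes, Spearman's rho between the share and the H3K4me1 density was -0.794, and rho between the densities of stand-alone and other peaks was 0.258. These describe chromosomes of the same libraries, and the H3K4me1 density enters the share through the rule. The median score of stand-alone peaks varied little between autosomes, from 78.05 to 86.15.

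**Figure D5:**
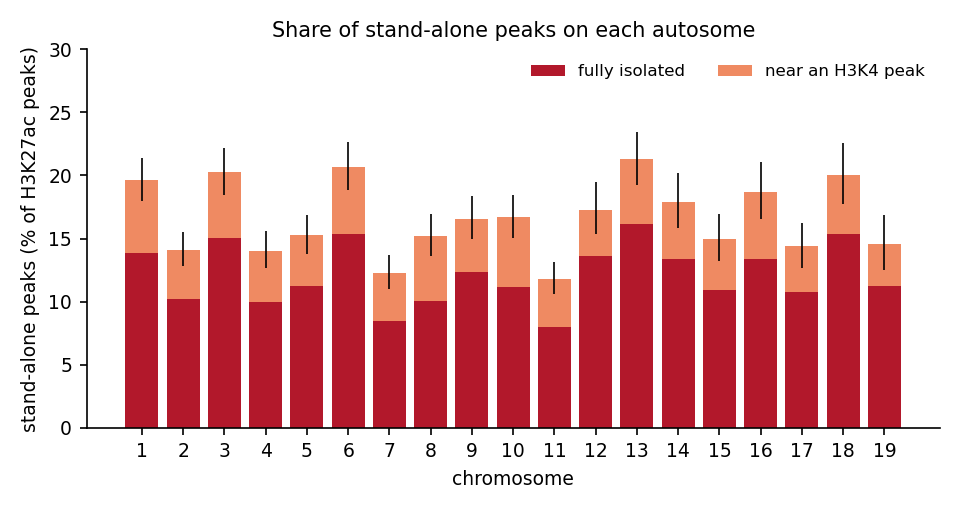
Stand-alone peaks as a percentage of the H3K27ac peaks on each autosome, stacked as fully isolated (dark red) and near (orange), with 95% Wilson intervals of the total as black lines. The total ranges from 11.83% on chromosome 11 to 21.28% on chromosome 13.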

How the data were processed

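The authors deposited 4 peak lists, which give intervals on mm9 and 1 score for each peak. Bowtie 0.12.9, MACS 1.4 and Cufflinks are named in the submitters' processing notes, without role or order. The control, the handling of duplicate reads and the cutoff of the caller were not given in the sources used here. Peak lists hold no read counts, so depth is unknown; a deeper H3K4 library would leave fewer stand-alone peaks. Each list comes from 1 library. The input sample was not analysed here.

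Overlap means at least 1 shared bp, and distances count the bases between edges. The counts of surrounding peaks within 100 kb used peak midpoints instead. Shares carry 95% Wilson intervals and medians 95% order-statistic intervals. Densities use the last peak end of each chromosome. Regions were named by rank of score, width, distance, run size or overlap. The regions, their split, the lists and the rule for naming were chosen with earlier results of these data known. Positions are 1-based. No genes or sequences are given, since no mm9 genome or annotation was used here. The interval code was tested on simulated data. Python 3.11.15, numpy 2.4.6, scipy 1.17.1, pandas 2.3.3 and matplotlib 3.10.9 were used.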

Additional observations from a re-analysis of the deposited data

How the results depend on the processing

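Of 52 values under other settings, 15 stayed inside the 95% interval of the reported value and 37 did not. No paired analysis was possible because each mark has 1 library. Counting as stand-alone every peak less than 50% covered by H3K4 gave 18.19% stand-alone, 64.89% of them isolated, a median score of 83.12, a median width of 584 bp, 37.46% with no H3K27ac within 10 kb, and 37.1% and 1.707% in the lowest and highest score decile. Using only H3K4 peaks at or above their list's median score gave 28.26% stand-alone, 79.83% isolated, 91.24 and 612 bp, 37.26% with no H3K27ac within 10 kb, deciles at 49.24% and 2.469%, 68.93% of near peaks nearest to H3K4me1 and 10.59% flanked on both sides. Using only H3K27ac peaks at or above the median score gave 6.5% (1065 peaks), 74.65% isolated, 269.5 and 1003 bp, 51.83%, 82.96% and 12.59% in the same order, without deciles. Merging H3K27ac peaks within 1 kb gave 84.05% isolated, a width of 596 bp and deciles at 40.88% and 0.378%. On all chromosomes 16.68% were stand-alone and 0.5709% of these lay on H3K27me3. The isolated share was 79.97% with near set at 1 kb, 58.77% at 5 kb and 74.52% from midpoints. Flanking on both sides was 11.69% at 1 kb and 26.17% at 5 kb, where 89.1% were nearest to H3K4me1. With no H3K27ac within 5 or 20 kb the share was 48.33% or 29.96%. The stand-alone share moved by over 1.5 times where the H3K4 or the H3K27ac lists were shortened by score. Leaving out H3K4 peaks could only raise that share. For the H3K27ac list the higher median score and width follow from that setting's construction. Spacing was then measured among the kept H3K27ac peaks alone, so the distance from a kept peak to the next could only grow. Depth is unknown, so how many peaks a deeper library would add cannot be given.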

Other observations

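On the X chromosome, which the rule left out, 267 of 792 H3K27ac peaks (33.71%, 95% Wilson interval 30.51 to 37.08) touched neither H3K4 mark, and 210 of these had none within 2 kb. The share lies above that of every autosome, where the highest was 21.28%, and the H3K4me1 list held 2.46 peaks per Mb on X, against 22.1 to 50.2 on autosomes. These X peaks had a median score of 102.6 and a median width of 617 bp, against 278.8 and 933 bp for the 525 other X peaks. A score of 500 or more was reached by 29 of the 267 (10.86%), against 3.822% of the autosomal stand-alone peaks. That share was not counted for the other X peaks. Their median score of 278.8 was also above the 202.71 of the other autosomal H3K27ac peaks. H3K27me3 overlapped 26 of the 267 (9.738%, 6.732 to 13.89) and 43 of the 525 other X peaks (8.19%, 6.137 to 10.85), and the intervals of these 2 shares overlap.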
